A study of Mus musculus with 18 samples.

Results

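The genes described here are the digestive enzyme and secretory granule genes of pancreatic acinar cells, 28 in number, and 4 genes for transcription factors of the same cells (Ptf1a, Rbpjl, Bhlha15 and Nr5a2). They are the 32 rows of the deposited count table whose gene symbol is on that list, out of 55536 genes. Pancreatic islets had been isolated from male mice 17 weeks old of the NOD.SCID strain NOD.CB17-Prkdcscid/NCrCrl. All groups carry its Prkdc mutation and so lack mature lymphocytes of the T and B lineages. By genotype the mice were ZnT8+/+ (WT), ZnT8+/- (HET) or ZnT8-/- (KO), and the missing gene, Slc30a8, encodes zinc transporter 8, which loads zinc into insulin granules of beta cells. After overnight culture the islets spent 24 h in medium alone (untreated) or with a mix of TNF-α at 100 pg/ml, IL-1β at 150 pg/ml and IFN-γ at 10 pg/ml, which gave 6 groups of 3 RNA-seq libraries. Whether each library is a mouse of its own is not stated in the labels, and the p-values below therefore describe how these samples scatter, which may be technical.

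Acinar cells make up most of the exocrine pancreas and surround the islets. They make digestive enzymes, most of them as inactive precursors, pack them into zymogen granules and release them into the pancreatic ducts. In these cells Ptf1a, a bHLH protein, works in a complex with an E protein such as Tcf3 and with Rbpjl, and this complex is known to bind the promoters of enzyme genes directly. Bhlha15 (also called Mist1) directs the secretory architecture of acinar cells and is found in other secretory cells too, and the nuclear receptor Nr5a2 (LRH-1) supports enzyme gene expression beside its roles outside the acinus. Islet preparations can carry exocrine tissue with them. In bulk RNA fewer acinar cells and less enzyme RNA per acinar cell cannot be told apart.

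The promoters of 6 members are shown first. The E-box CACCTG is a form of the site that bHLH factors bind, while GATAAG is a site of GATA factors. Each line holds the 250 bases before the RefSeq start of the gene (GRCm38.p6), written 5′ to 3′ along the gene, with matches to either motif, on either strand, in capitals. Cela1 and Cela3b encode elastases, Ctrb1 and Prss2 are the enzyme genes with the most reads, and Bhlha15 and Ptf1a are the factors. The windows are chr15:100687921-100688170 (minus strand) for Cela1, chr4:137430521-137430770 (minus) for Cela3b, chr8:111691011-111691260 (minus) for Ctrb1, chr6:41521526-41521775 (plus) for Prss2, chr5:144190036-144190285 (plus) for Bhlha15 and chr2:19445413-19445662 (plus) for Ptf1a.
Cela1: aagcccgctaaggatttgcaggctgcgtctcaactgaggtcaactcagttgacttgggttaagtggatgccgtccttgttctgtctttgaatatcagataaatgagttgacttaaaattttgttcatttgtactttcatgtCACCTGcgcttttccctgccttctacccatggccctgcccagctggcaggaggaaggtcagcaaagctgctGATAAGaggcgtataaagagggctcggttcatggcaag
Cela3b: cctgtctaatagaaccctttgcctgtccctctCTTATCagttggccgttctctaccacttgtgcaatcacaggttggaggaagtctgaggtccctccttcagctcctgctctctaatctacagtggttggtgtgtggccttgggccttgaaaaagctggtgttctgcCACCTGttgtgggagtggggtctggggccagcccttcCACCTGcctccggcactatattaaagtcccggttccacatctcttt
Ctrb1: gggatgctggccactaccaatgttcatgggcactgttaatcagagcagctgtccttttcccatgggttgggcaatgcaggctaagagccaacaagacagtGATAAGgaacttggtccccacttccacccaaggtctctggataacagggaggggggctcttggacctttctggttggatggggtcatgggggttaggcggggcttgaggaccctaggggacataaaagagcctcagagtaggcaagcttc
Prss2: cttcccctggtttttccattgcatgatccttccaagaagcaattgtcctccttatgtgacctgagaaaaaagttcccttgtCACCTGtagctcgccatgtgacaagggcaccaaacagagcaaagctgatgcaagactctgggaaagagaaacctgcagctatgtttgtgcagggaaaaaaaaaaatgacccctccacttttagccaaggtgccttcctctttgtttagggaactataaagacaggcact
Bhlha15: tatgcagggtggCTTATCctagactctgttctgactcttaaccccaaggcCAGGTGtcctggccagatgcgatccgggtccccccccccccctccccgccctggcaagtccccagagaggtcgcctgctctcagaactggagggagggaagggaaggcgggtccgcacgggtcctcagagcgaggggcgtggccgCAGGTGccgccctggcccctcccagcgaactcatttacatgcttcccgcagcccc
Ptf1a: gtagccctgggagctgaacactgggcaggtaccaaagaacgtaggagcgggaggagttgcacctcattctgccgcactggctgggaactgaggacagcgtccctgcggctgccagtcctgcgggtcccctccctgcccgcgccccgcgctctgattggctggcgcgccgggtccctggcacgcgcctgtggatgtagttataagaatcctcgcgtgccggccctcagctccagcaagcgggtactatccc

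Of the 32 members, 28 had a promoter in the table, and Zg16, Try5, Ctrc and Clps are named only. CACCTG lay in 15 of the 24 enzyme promoters (62.5%), against 17.2% of all 32851 promoters of the same length. GATAAG lay in 11 of the 24 (45.8%), against 6.55% of all promoters. Both motifs stood in 8 members, Cela1, Cela2a, Cela3a, Cela3b, Try4, Prss1, Rbpjl and Bhlha15, against 1.00% of all promoters. The general E-box CANNTG, which contains CACCTG, was found in 79.2% of enzyme promoters and 66.2% of all. Further motifs searched on both strands were TTTCCC, the core of an RBPJ site (33.3% of enzyme promoters, 21.9% of all), and AAGGTCA, a site of NR5A receptors (16.7% and 4.08%). Among the factors, Bhlha15 and Rbpjl held CACCTG, and Bhlha15, Rbpjl and Nr5a2 held GATAAG. The promoter of Ptf1a held neither in this window. These are matches of letters, binding was not measured here, and a link to the changes given below was not tested.

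Each library held 22990164 to 29946680 reads assigned to genes. Levels are in CPM, the usual depth-scaled count unit, after TMM scaling of library sizes. Each change is given as log2 fold change ± SE, as estimated in edgeR, and was called with its quasi-likelihood test at a Benjamini-Hochberg adjusted p under 0.05 over the 17590 genes that passed the low-count filter. The genotype labels were checked on Slc30a8, which stood at 98.8 to 125 CPM in untreated WT, 95.7 to 126 CPM in untreated HET and 44.0 to 55.9 CPM in untreated KO libraries. KO islets had less of it than WT islets with and without cytokines (-1.23 ± 0.19, edgeR adjusted p = 0.00495, untreated), and HET islets were not called different. The check thus bears on the KO label and cannot tell HET from WT libraries. The untreated HET replicate 1 and KO replicate 3 libraries had the lowest quality weights (0.231 and 0.479) when limma weighed the libraries.

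Together the 28 enzyme genes took 1.01%, 1.01% and 0.970% of all reads in the 3 untreated WT libraries. The untreated HET libraries gave 0.439%, 0.527% and 0.350%, and the untreated KO libraries 0.184%, 0.286% and 0.188%. With cytokines the shares were 0.669%, 1.24% and 1.10% in WT, 0.508%, 0.365% and 0.323% in HET, then 0.0859%, 0.185% and 0.213% in KO islets. In each treatment all WT libraries lay above all HET libraries and all HET libraries above all KO libraries. The untreated means were 0.997% ± 0.0238 in WT, 0.439% ± 0.0881 in HET and 0.219% ± 0.0578 in KO islets (SD, n = 3), and the cytokine-treated means 1.00% ± 0.299, 0.399% ± 0.0968 and 0.161% ± 0.0668. The WT mean was thus 2.27 times the HET mean and 4.55 times the KO mean in untreated islets, and 2.52 and 6.23 times with cytokines. The cytokine-treated WT libraries were the most spread, with replicate 1 below its mates.

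**Figure D1:**
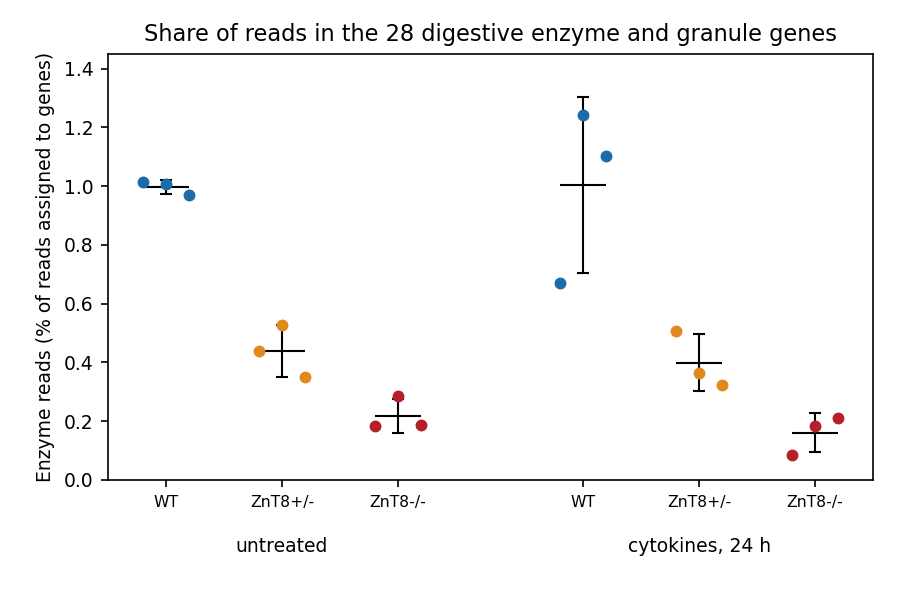
Share of each library's reads assigned to genes (y axis, %) that fell in the 28 enzyme and granule genes, for WT (ZnT8+/+), ZnT8+/- and ZnT8-/- islets without and with cytokines. Points are libraries and black bars the mean ± SD of 3 libraries: the untreated means step from 0.997% in WT to 0.439% and 0.219%, and cytokine-treated WT replicate 1, at 0.669%, lies below its mates.

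The enzyme genes differ widely in level. Set per kilobase of exon in untreated WT islets, the chymotrypsinogen Ctrb1 stood highest at 4167 ± 122 CPM per kb, followed by the trypsinogens Prss2 (1227 ± 138) and Try5 (821 ± 141), the carboxypeptidase Cpa1 (295 ± 23.0) and the elastase Cela3b (282 ± 26.1). At the low end stood Pdia2, a pancreatic disulfide isomerase, at 13.7 ± 1.38 and the amylase Amy1 at 1.52 ± 0.324 CPM per kb. The factors were at 14.1 ± 1.56 (Bhlha15), 1.54 ± 0.581 (Ptf1a), 0.982 ± 0.108 (Nr5a2) and 0.166 ± 0.0602 CPM per kb (Rbpjl). Cpa1 and Cela3b do not differ beyond their spread, and neither do Amy1 and Ptf1a. Enzyme members Cela3a and Prss1 failed the filter, with 0 to 1 and 0 to 14 reads per library, and were not tested.

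Some of these levels are less certain than others because the genes have close copies. The trypsinogen genes Prss1, Prss2, Prss3, Try4 and Try5 lie between positions 41302269 and 41525079 of chromosome 6, and 66.1% of the stretches of 50 bases in the exons of Prss3 also occur in another gene. That share was 65.6% for Try4, 54.9% for Prss1, 47.6% for Try5, 40.2% for Amy2b, 34.2% for Cela3a, 33.3% for Amy1, 24.0% for Klk1, 19.2% for Cela3b, 17.7% for Ctrc, 15.6% for Cela2a and 7.83% for Prss2. Amy2b is annotated as a pseudogene in GENCODE M21, and its counts are uncertain. The genes it shares stretches with include Amy2a2, Amy2a3, Amy2a4 and Amy2a5. Of the Amy2a amylase rows, Amy2a1 and Amy2a5 had 0 to 3 reads per library and Amy2a2, Amy2a3 and Amy2a4 had 0 in all. None of these was tested, so the level of amylase RNA as a whole cannot be read from Amy1 and Amy2b. Cela2a and Ctrc overlap each other on the same strand of chromosome 4, and Amy1 overlaps Rnpc3 on the same strand of chromosome 3, which leaves their reads uncertain too. The lipase genes Pnlip, Pnliprp1 and Pnliprp2, neighbours on chromosome 19, shared no such stretch with another gene.

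The proportions among the enzyme genes varied far less than their sum. Ctrb1 took 37.2% of the enzyme reads in untreated WT, 41.4% in untreated HET and 38.5% in untreated KO islets, and 37.7%, 42.1% and 38.0% with cytokines (group means). Prss2 took between 9.53% and 10.8% in the 6 group means, and the bile salt dependent lipase Cel between 3.55% and 3.95%. Try5 moved more, from 5.87% in untreated HET to 8.22% in untreated KO islets. Across the 18 libraries the highest CPM of a tested enzyme gene was a median 14.9 times its lowest, from 9.07 times for Amy1 to 52.9 times for Prss3. In log2 CPM each tested enzyme gene was correlated with the sum of the other enzyme genes. The median Pearson r was 0.990 over the 18 libraries and 0.939 for deviations from group means. The enzyme genes thus largely moved together, and counts of them given below are not counts of independent observations.

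**Figure D2:**
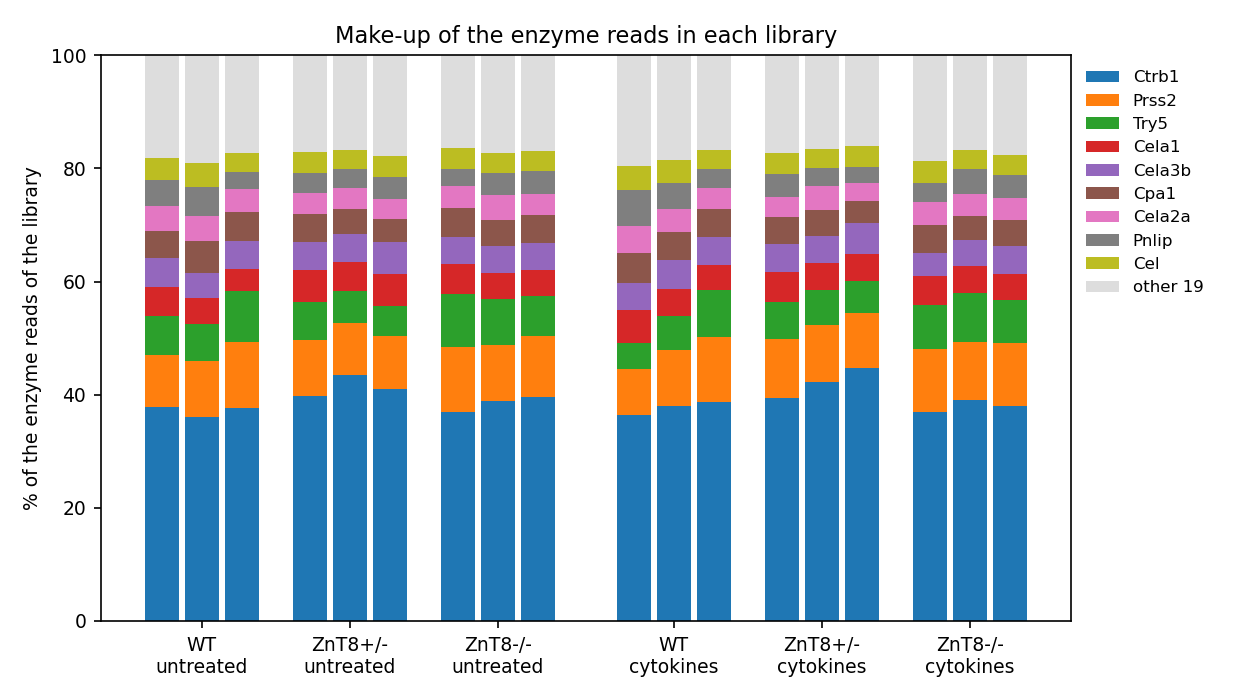
Make-up of the enzyme reads in each of the 18 libraries (3 bars per group, replicates 1 to 3 from left to right): the y axis gives each gene's percent of the reads in all 28 enzyme genes, for the 9 genes with the largest mean share and the other 19 together. Ctrb1 fills 37.2% to 42.1% in the group means.

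The first comparison asks how KO islets differ from WT islets. In untreated islets 25 of the 26 tested enzyme genes were lower in KO, and the 26 had a median of -2.25 and a range from -2.75 to -1.91, beside a median of 0.00 over all genes tested. With the factor Ptf1a that makes 26 members called lower and 0 called higher, where 2.40% of all genes tested were called lower. With cytokines all 26 tested enzyme genes were lower (median -2.72, range -3.17 to -2.35, with a limma median of -3.36) and so were Rbpjl and Nr5a2, which makes 28 members, against 3.80% of all genes. Every KO library lay below every WT library for all 26 tested enzyme genes in both treatments, where this was so for 14.7% and 16.0% of all genes. Leaving out each library in turn gave 18 to 25 called members untreated and 25 to 27 with cytokines, and a fit on only the cytokine-treated WT and KO groups called 17. Without the 2 libraries of lowest quality weight 27 members were called in untreated islets, 26 of them lower and 1, Bhlha15, higher. DESeq2 called 28 members in each treatment and limma 28 and 30, where DESeq2 called 5.28% and 9.02% and limma 9.98% and 23.1% of all genes. All 30 tested members had an unadjusted p under 0.05 in both treatments, as had 18.3% and 24.0% of all genes.

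Proteases came first in reads. Ctrb1, which encodes chymotrypsinogen B, stood at 3759, 3546 and 3671 CPM in untreated WT, 1779.9, 2236 and 1387 in HET, then 709, 1119 and 721 in KO libraries. With cytokines it was at 2422, 4828 and 4313 CPM in WT, 1999, 1548 and 1455 in HET, then 325, 748 and 793 in KO. KO libraries lay below WT libraries in both treatments, at -2.11 ± 0.34 (edgeR adjusted p = 0.00631) and -2.63 ± 0.35 (0.00147). The trypsinogen Prss2 went from 903, 973 and 1124 CPM in untreated WT to 221, 288 and 197 in KO, and from 541, 1250.4 and 1261 to 96.8, 195 and 231 with cytokines. HET libraries of Prss2 were between these, at 447, 475 and 318 CPM untreated and 525, 370 and 312 with cytokines.

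Carboxypeptidases cut the chains from their end. Cpa1 stood at 483, 561 and 506 CPM in untreated WT, 223, 226 and 133 in HET, then 98.7, 130 and 91.5 in KO, and with cytokines at 353, 624 and 546, then 241, 171 and 125, then 43.0, 83.3 and 95.3. Cpb1, the enzyme for basic residues, stood at 197, 218 and 172 CPM in untreated WT, 85.8, 83.3 and 60.8 in HET, then 37.1, 51.7 and 31.8 in KO, and with cytokines at 146, 245 and 203, then 96.2, 59.2 and 55.6, then 19.6, 34.9 and 36.0. For both genes no library of one genotype overlapped one of another genotype within a treatment. The elastase Cela1 was at 508, 449 and 371 CPM in untreated WT, 254, 268 and 194 in HET, then 99.1, 132 and 83.0 in KO, and with cytokines at 390, 603 and 483, then 270, 176 and 154, then 45.8, 91.8 and 96.2. Its KO libraries were below its WT libraries at -2.08 ± 0.30 untreated and -2.66 ± 0.31 with cytokines.

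Prss3, a minor trypsinogen, was the exception. Its CPM were 24.2, 7.23 and 7.67 in untreated WT, 3.38, 18.2 and 2.56 in HET, then 2.09, 2.88 and 0.918 in KO, so that 1 library in each of WT and HET stood far above its mates. At -2.75 ± 0.77 it was not called in untreated KO islets (edgeR adjusted p = 0.0746). With cytokines it was called (-3.17 ± 0.82, edgeR adjusted p = 0.0417), and the call was lost without any one of the 6 libraries compared (adjusted p from 0.0753 to 0.136).

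Lipases and their helpers followed the proteases. Pnlip, the pancreatic triglyceride lipase, stood at 457, 503 and 301 CPM in untreated WT, 164, 167 and 129 in HET, then 57.2, 115 and 72.9 in KO, and with cytokines at 417, 566 and 372, then 201, 121 and 90.8, then 30.3, 82.3 and 83.9. Cel was at 384, 414 and 327 CPM in untreated WT, 162, 173 and 129 in HET, then 71.6, 102 and 64.3 in KO, and with cytokines at 283, 527 and 383, then 190, 119 and 122, then 33.5, 63.8 and 73.3. Again the 3 genotypes did not overlap within a treatment. Colipase (Clps), the cofactor of Pnlip, was lower in KO by the same test, at -2.23 ± 0.31 and -2.71 ± 0.32, and the phospholipase Pla2g1b at -2.26 ± 0.36 and -2.87 ± 0.38.

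Among the other secreted and granule genes, the ribonuclease Rnase1 stood at 40.4, 46.1 and 44.1 CPM in untreated WT, 18.7, 21.5 and 12.7 in HET, then 6.64, 12.2 and 7.77 in KO. With cytokines it was at 34.1, 54.0 and 48.6, then 20.7, 15.8 and 15.0, then 5.64, 9.20 and 10.8. Zg16, a lectin of zymogen granules, stood at 33.7, 28.2 and 24.5 CPM in untreated WT, 12.2, 19.6 and 12.1 in HET, then 5.31, 7.22 and 3.67 in KO, and with cytokines at 33.0, 39.5 and 32.2, then 13.9, 12.8 and 9.22, then 3.07, 5.02 and 5.80. Its drop was among the 4 largest called in both treatments, at -2.42 ± 0.28 untreated and -2.92 ± 0.29 with cytokines. Gp2, the main membrane glycoprotein of the granule, went from 182, 183 and 190 CPM in untreated WT through 82.2, 93.4 and 63.3 in HET to 29.6, 58.1 and 37.0 in KO, and with cytokines from 115, 254 and 208 through 94.6, 64.2 and 54.4 to 15.1, 33.3 and 41.2. The other drops among the 4 largest were those of Amy2b (-2.46 ± 0.36), the chymotrypsin-like protease Ctrl (-2.39 ± 0.35) and Pdia2 (-2.38 ± 0.35) in untreated islets, and of Prss3, Ctrl (-3.01 ± 0.36) and Pla2g1b with cytokines. The enzyme and granule genes not yet given, the elastases Cela2a and Cela3b, chymotrypsin C (Ctrc), the trypsinogens Try4 and Try5, the lipase-related Pnliprp1 and Pnliprp2, Amy1, the granule protein syncollin (Sycn) and the kallikrein Klk1, were each called lower in both treatments. Their changes ran from -2.31 ± 0.30 (Try4) to -1.91 ± 0.30 (Amy1) untreated and from -2.86 ± 0.31 (Try4) to -2.35 ± 0.31 (Amy1) with cytokines.

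**Figure D3:**
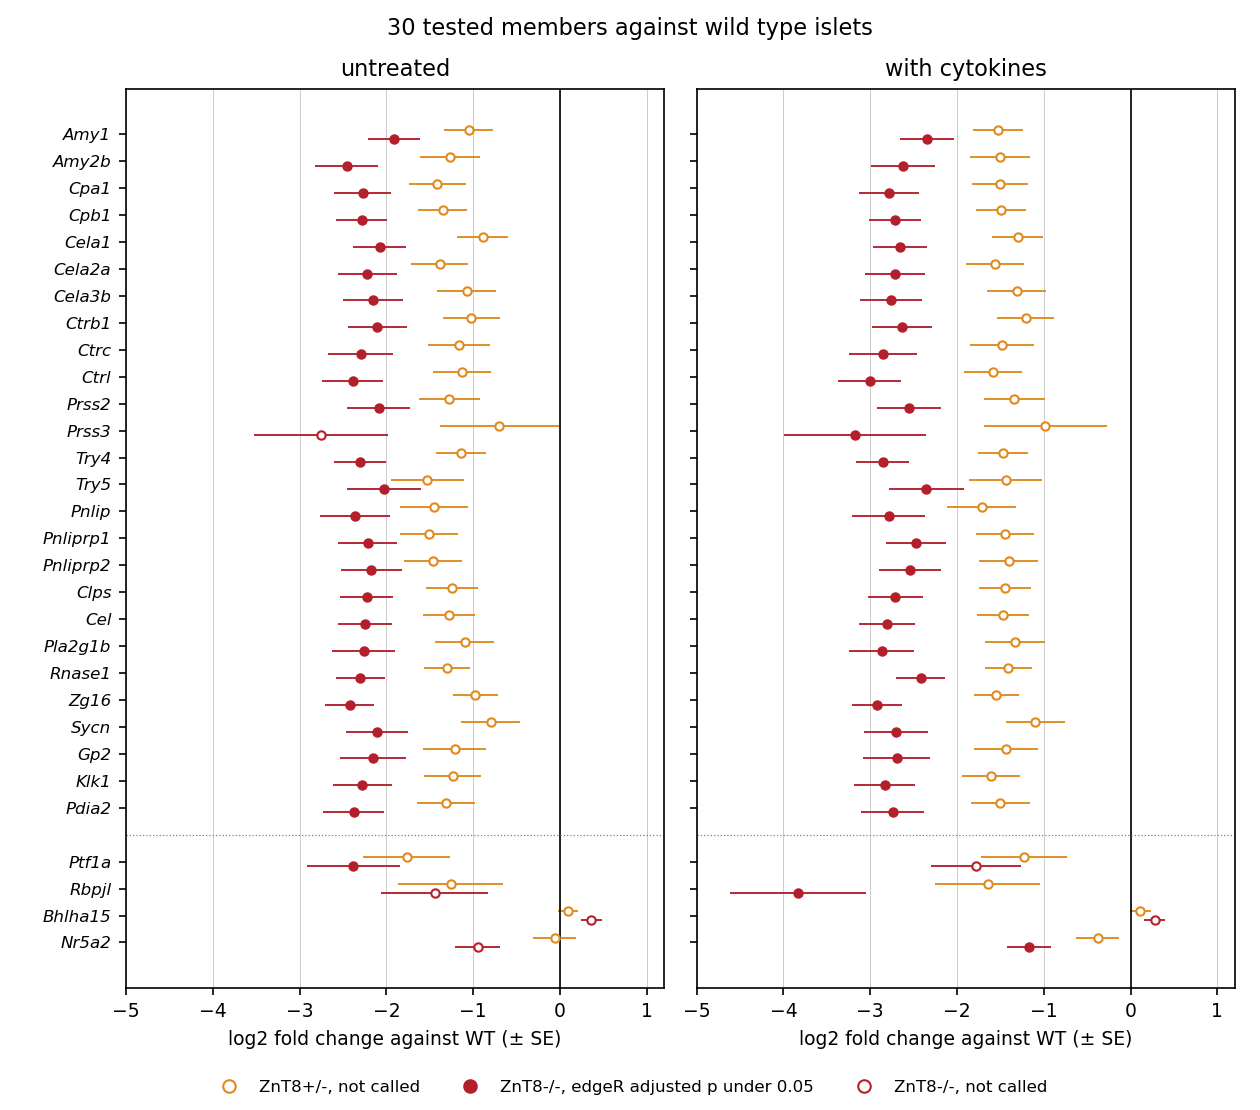
Log2 fold changes ± SE against WT islets (x axis) of the 30 tested members (y axis), enzymes above the dotted line and factors below it, for ZnT8+/- (orange) and ZnT8-/- islets (red), untreated and with cytokines. Filled points passed an edgeR adjusted p under 0.05: the enzyme genes form 2 bands around medians of -1.24 and -2.25 untreated and -1.46 and -2.72 with cytokines, while Bhlha15 lies just above 0.

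The next comparison asks whether 1 missing copy of Slc30a8 went with a change. In HET islets every tested enzyme gene had a lower estimate than in WT, with a median of -1.24 (range -1.53 to -0.70) untreated and -1.46 (range -1.71 to -0.98) with cytokines. By edgeR 0 members were called in either treatment, where 0.00569% and 0% of all genes were called lower. The 2 enzyme genes of smallest p were Rnase1 (-1.30 ± 0.27, edgeR adjusted p = 0.248) and Cpb1 (-1.35 ± 0.28, edgeR adjusted p = 0.248) untreated, and Zg16 (-1.55 ± 0.26, edgeR adjusted p = 0.179) and Amy1 (-1.53 ± 0.29, edgeR adjusted p = 0.179) with cytokines. At an unadjusted p under 0.05, 25 of the 26 enzyme genes were lower in each treatment, where 6.97% and 7.03% of all genes passed in either direction. DESeq2 called 15 and 23 members lower and limma 0 and 23, where DESeq2 called 0.284% and 0.330% and limma 0.00569% and 0.671% of all genes in either direction. Every HET library lay below every WT library for 25 enzyme genes untreated and 24 with cytokines, where this was so for 7.24% and 8.16% of all genes.

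KO islets in turn had lower estimates than HET islets for every tested enzyme gene, with medians of -1.02 untreated and -1.26 with cytokines (-1.81 by limma). Again edgeR called 0 members, with 0% and 0.00569% of all genes called lower. Zg16 and Cela1 had the smallest p among the enzymes in untreated islets (-1.45 ± 0.28, edgeR adjusted p = 0.112 and -1.19 ± 0.30, edgeR adjusted p = 0.148), and Zg16 and Try4 with cytokines (-1.37 ± 0.28, edgeR adjusted p = 0.34 and -1.39 ± 0.30, edgeR adjusted p = 0.34). The unadjusted p was under 0.05 for 23 and 26 enzyme genes, all lower, where 14.6% and 8.32% of all genes passed it in either direction. DESeq2 called 9 and 13 enzyme genes and limma 12 and 21, where DESeq2 called 1.87% and 0.307% and limma 13.0% and 0.870% of all genes in either direction. Of the factors, untreated Nr5a2 (-0.89) was called lower by DESeq2 (adjusted p = 0.0405) and limma (0.0170), and Bhlha15 (0.27) higher by limma (0.0174). Both also passed in edgeR without untreated HET replicate 1 (adjusted p = 0.0187 and 0.0236) and without the 2 libraries of lowest quality weight (0.0155 and 0.0166). Every KO library lay below every HET library for 21 and 25 enzyme genes, where this was so for 6.32% and 7.83% of all genes. The comparisons of HET and KO with WT share the WT libraries, and those of HET with WT and KO with HET share the HET libraries, so their values are not independent.

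A further question is what the cytokines did. In WT islets the enzyme genes had a median change of 0.07 (range -0.32 to 0.28), in HET islets -0.16 (range -0.60 to -0.04) and in KO islets -0.44 (range -0.74 to -0.05). By edgeR 0 members were called in any genotype, where 25.7%, 24.5% and 31.3% of all genes were called in either direction, and 0 enzyme genes reached an unadjusted p under 0.05, where 36.7%, 35.1% and 41.3% of all genes did. The enzymes of smallest p were Zg16 (0.28 ± 0.25, edgeR adjusted p = 0.465) and Amy1 (0.17 ± 0.28, edgeR adjusted p = 0.693) in WT, Zg16 (-0.29 ± 0.26, edgeR adjusted p = 0.476) and Amy1 (-0.30 ± 0.30, edgeR adjusted p = 0.517) in HET, and Cpa1 (-0.53 ± 0.32, edgeR adjusted p = 0.239) and Cel (-0.48 ± 0.30, edgeR adjusted p = 0.261) in KO islets. DESeq2 called 0 members in WT and HET and 1, Rbpjl, in KO islets, against 26.0%, 24.7% and 31.0% of all genes. limma called 0, 0 and 20, the last made of 18 enzyme genes, Rbpjl and Bhlha15, all lower, against 38.7%, 30.9% and 41.6% of all genes. Its median for the enzymes there was -1.09, and it gave its highest weight of all libraries, 3.01, to cytokine-treated KO replicate 1, the library with the lowest enzyme share. The difference of the response between genotypes had medians of -0.23 (HET minus WT), -0.50 (KO minus WT) and -0.29 (KO minus HET), the last 2 of which limma put at -1.25 and -0.85. With 0 members called by edgeR, DESeq2 or limma in these 3 tests, and 0 enzyme genes and 1 factor (Rbpjl, in KO minus WT) at an unadjusted p under 0.05, no difference in response was detectable. Of all genes 0%, 0.0114% and 0% were called by edgeR in these tests, 0%, 0.301% and 0.00569% by DESeq2 and 0%, 0.0853% and 0% by limma, and 4.79%, 6.73% and 5.73% had an unadjusted p under 0.05. The interval of 2 SE around the KO minus WT value for Ctrb1 ran from -1.45 to 0.40.

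Among the factors, the 2 parts of the acinar bHLH complex had few reads. Ptf1a had 46, 83 and 57 reads in untreated WT, 29, 19 and 11 in HET, then 15, 8 and 13 in KO libraries, and 33, 68 and 57, then 46, 19 and 8, then 22, 9 and 17 reads with cytokines. In CPM this was 1.59, 3.30 and 2.09 in untreated WT, 0.990, 0.664 and 0.381 in HET, then 0.569, 0.325 and 0.426 in KO. All untreated WT libraries lay above the rest, and KO was lower than WT at -2.38 ± 0.53 (edgeR adjusted p = 0.0268). That call was lost without any one of the 6 libraries compared, with adjusted p from 0.0521 to 0.107. With cytokines Ptf1a stood at 1.36, 2.84 and 2.23 CPM in WT, 1.78, 0.693 and 0.286 in HET, then 0.776, 0.404 and 0.653 in KO, at -1.79 ± 0.52 for KO against WT (adjusted p = 0.0569). That change was called by DESeq2 (adjusted p = 0.0190), limma (0.0136) and edgeR on only the groups compared (0.0424). HET islets were at -1.76 ± 0.50 (edgeR adjusted p = 0.376) untreated and -1.23 ± 0.49 (edgeR adjusted p = 0.672) with cytokines. The antisense gene Ptf1aos overlaps Ptf1a on the opposite strand, and the sources used here do not give whether reads were counted by strand.

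Rbpjl, the acinar partner of Ptf1a in the complex, had 18, 33 and 25 reads in untreated WT, 15, 7 and 12 in HET, then 9, 9 and 10 in KO libraries. With cytokines it had 11, 50 and 25 reads (WT), 15, 7 and 8 (HET) and 0, 0 and 6 (KO). A library with 0 reads allows up to 3, or 0.106 and 0.135 CPM in these KO libraries. KO was at -1.45 ± 0.62 against WT untreated (edgeR adjusted p = 0.227) and was called lower with cytokines at -3.83 ± 0.78 (edgeR adjusted p = 0.0119), a size that rests on libraries at 0. The call was lost without KO replicate 1 (adjusted p = 0.0544), KO replicate 2 (0.0631) or WT replicate 2 (0.0664), and in a fit of only the groups compared (0.0877). Within KO islets, cytokines against none gave -2.07 ± 0.90 (edgeR adjusted p = 0.0933). Without cytokine-treated KO replicate 3, the one with reads, this became -6.22 (adjusted p = 0.00870), a fitted size against libraries at 0. DESeq2 (adjusted p = 0.0469) and limma (0.00397) called it lower. Matn4 lies over Rbpjl on the opposite strand.

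Between genotypes, Bhlha15 had estimates above 0 against WT, unlike the enzyme genes. It stood at 44.9, 47.3 and 55.3 CPM in untreated WT, 62.8, 44.7 and 49.4 in HET, then 66.5, 63.2 and 59.7 in KO, and with cytokines at 37.3, 46.2 and 42.9, then 44.1, 45.0 and 47.2, then 53.6, 55.2 and 44.5. All untreated KO libraries lay above all untreated WT libraries, as for 1938 of the 17590 genes tested, at 0.36 ± 0.12 (edgeR adjusted p = 0.117), and with cytokines the groups overlapped, at 0.28 ± 0.12 (adjusted p = 0.171). Neither passed the edgeR test on all groups, while limma called both higher (adjusted p = 0.0193 and 0.0350). The untreated change also passed in edgeR fits of only the groups compared (0.37, adjusted p = 0.0452) and without the 2 libraries of lowest quality weight (0.40, adjusted p = 0.0351). HET islets were at 0.09 ± 0.12 and 0.11 ± 0.12 against WT. Cytokines against none gave -0.22 ± 0.12 in WT, -0.20 ± 0.12 in HET and -0.31 ± 0.12 in KO islets (edgeR adjusted p = 0.191, 0.246 and 0.0624). In KO islets the last was called lower by limma (adjusted p = 0.0215) and by edgeR without the 2 libraries of lowest quality weight (0.0200).

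Nr5a2 had smaller estimates than the enzyme genes. Its libraries gave 5.06, 6.12 and 6.20 CPM in untreated WT, 4.06, 6.68 and 5.89 in HET, then 1.71, 3.90 and 3.38 in KO, and 9.17, 7.51 and 7.33, then 6.74, 6.34 and 5.36, then 4.20, 2.56 and 3.88 with cytokines. KO libraries lay below WT libraries in both treatments, with -0.95 ± 0.26 in untreated islets (edgeR adjusted p = 0.0584) and -1.17 ± 0.26 in treated ones (edgeR adjusted p = 0.0161). The untreated change was called by DESeq2 (adjusted p = 0.0116), limma (0.0194) and edgeR without the 2 libraries of lowest quality weight (-1.05, adjusted p = 0.0323). With cytokines the call did not hold without KO replicate 2 (adjusted p = 0.0980), WT replicate 1 (0.0634) or WT replicate 2 (0.0527). HET and WT libraries overlapped untreated and did not overlap with cytokines, with changes of -0.06 ± 0.25 and -0.38 ± 0.25. Cytokines against none gave 0.47 in WT, 0.15 in HET and 0.25 in KO islets, and edgeR on all groups called none of these. In WT every treated library lay above every untreated one, as was so for 4064 of the 17590 genes tested. An edgeR fit of only the groups compared called the Nr5a2 rise in WT (0.48, adjusted p = 0.0230).

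**Figure D4:**
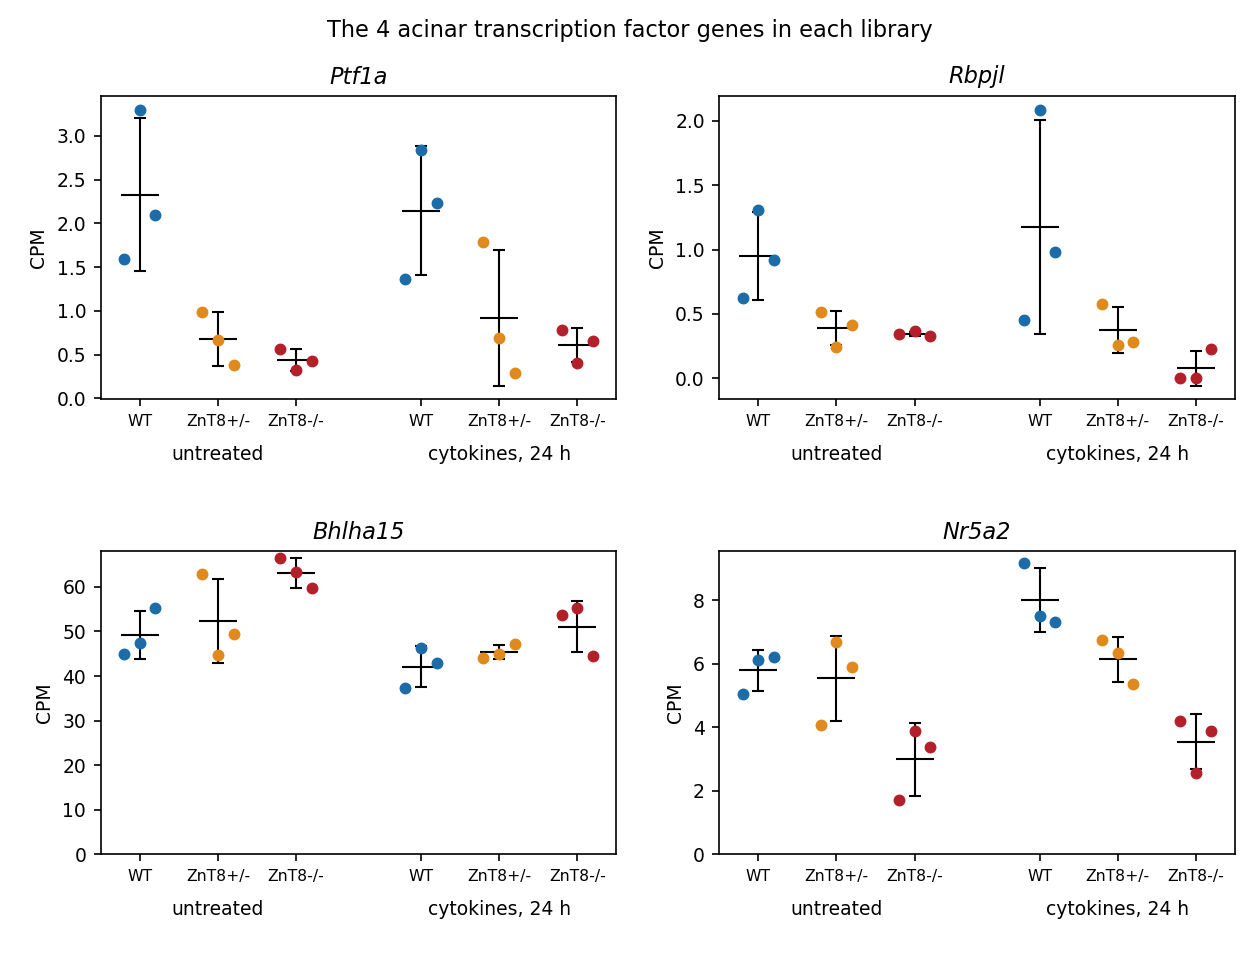
CPM (y axis) of the 4 factor genes in each library, by genotype and treatment; points are libraries and black bars the mean ± SD of 3 libraries. Ptf1a and Rbpjl lie highest in WT, Nr5a2 lowest in KO and Bhlha15 near the same level in all groups, from 37.3 to 66.5 CPM over the 18 libraries.

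Set against the enzyme reads of the same library, the factors split. Ptf1a had 0.237 ± 0.0893 reads per 1000 enzyme reads in untreated WT, 0.154 ± 0.0584 in untreated HET and 0.214 ± 0.0936 in untreated KO islets (SD, n = 3), so these groups overlapped, and with cytokines the means were 0.210 ± 0.0121, 0.210 ± 0.133 and 0.469 ± 0.363. The last value holds 1 library, KO replicate 1, at 0.884. Bhlha15 had 5.01 ± 0.601 reads per 1000 enzyme reads in untreated WT, 12.4 ± 3.25 in HET and 29.8 ± 6.87 in KO islets, and 4.36 ± 1.07, 11.8 ± 2.93 and 37.1 ± 21.1 with cytokines, and in each treatment the 3 genotypes did not overlap. Its own CPM varied only 1.78-fold over the 18 libraries, and the enzyme shares alone already separated the genotypes. The steps in this ratio therefore largely restate the fall in enzyme reads. Nr5a2 had 0.589 ± 0.0693, 1.31 ± 0.416 and 1.36 ± 0.481 untreated, and 0.876 ± 0.435, 1.57 ± 0.211 and 2.66 ± 1.86 with cytokines. Rbpjl, with 0 to 50 reads per library, gave 0.0968 ± 0.0353, 0.0948 ± 0.0411 and 0.161 ± 0.0302 reads per 1000 enzyme reads untreated, with KO highest, and 0.107 ± 0.0507, 0.0907 ± 0.0227 and 0.0368 ± 0.0638 with cytokines, with KO lowest and 2 of its libraries at 0. The log2 ratio of the summed factor reads to the summed enzyme reads was -7.40 ± 0.167 in untreated WT, -6.19 ± 0.376 in HET and -5.01 ± 0.344 in KO, and -7.52 ± 0.359, -6.21 ± 0.326 and -4.78 ± 0.781 with cytokines. Bhlha15 holds most factor reads in it, so it too largely follows the enzyme reads.

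**Figure D5:**
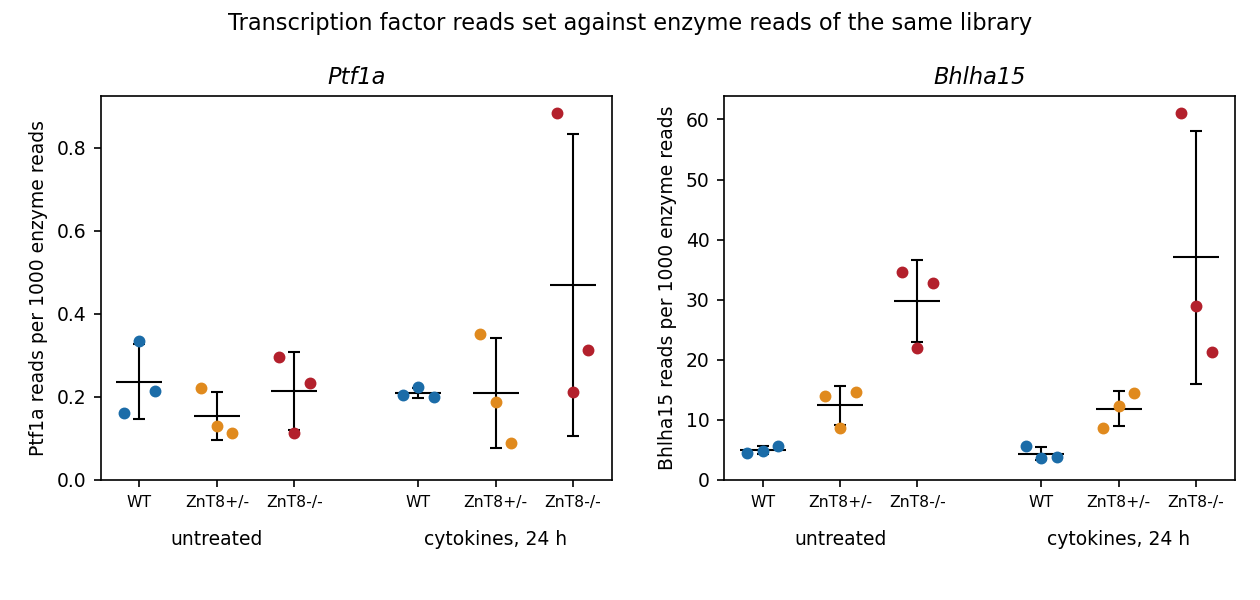
Reads of Ptf1a (left) and Bhlha15 (right) per 1000 reads of the 28 enzyme genes in the same library (y axis), by genotype and treatment; points are libraries and black bars the mean ± SD of 3. Ptf1a stays between 0.0880 and 0.352 apart from 1 cytokine-treated KO library at 0.884, while the Bhlha15 ratio steps up from WT to ZnT8+/- and ZnT8-/- islets as its denominator, the enzyme reads, falls.

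Other genes linked to acinar cells were counted beside the members. Of 42 such genes 31 were tested. Where 2.40% and 3.80% of all genes were called lower, 13 of the 31 were lower in untreated KO than in WT islets and 16 with cytokines (medians -1.30 and -1.45), with 0 higher. Those that fell most were the trypsinogen Try10 (-2.57 ± 0.48, edgeR adjusted p = 0.0107) and the trefoil peptide Tff2 (-2.31 ± 0.31, adjusted p = 0.00215) untreated, and the water channel Aqp12 (-3.37 ± 0.45) and the lectin Reg3a (-3.06 ± 0.47) with cytokines. Of 12 partners of the acinar factors, Gata4 had less RNA in KO than in WT islets, with changes of -1.75 ± 0.35 (edgeR adjusted p = 0.0184) in untreated and -2.24 ± 0.37 (adjusted p = 0.0043) in treated islets, and Tcf3 at -0.36 ± 0.09 with cytokines (adjusted p = 0.0287), with 0 higher. The partners as a list had medians of -0.05 untreated and -0.14 with cytokines, with 4 and 3 of the 12 estimates above 0. In HET islets 0 genes of either list were called by edgeR in either treatment, where 16 of the other acinar genes had an unadjusted p under 0.05 in each, DESeq2 called 4 and 8 of them and limma 0 and 10. Of the partners 2 and 1 had such a p, with 0 called by DESeq2 or limma. Of all genes 6.97% and 7.03% had such a p, DESeq2 called 0.284% and 0.330% and limma 0.00569% and 0.671%.

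Markers of other cells that surround or enter islets moved in part with the enzymes. Of 10 duct markers, Krt19 (-1.73 ± 0.34 and -2.02 ± 0.35) and Muc1 (-1.39 ± 0.24 and -1.22 ± 0.24) were called lower in KO than in WT islets in both treatments, and the summed duct level ran from 1991 to 2979 CPM in untreated WT, 1846 to 5159 in HET and 1546 to 2110 in KO libraries. In each treatment 7 duct estimates were below 0 and 3 above (medians -0.41 and -0.83). An unadjusted p under 0.05 was reached by 2 and 4 duct markers, where 18.3% and 24.0% of all genes did. Pdx1 is on both the duct and the beta cell list. Of 10 endothelial markers 2 were called lower in untreated KO islets and 4 with cytokines, led by Kdr (-1.09 ± 0.19) and Cdh5 (-1.12 ± 0.28), and all 10 had negative estimates in both treatments (medians -0.70 and -0.90). Of all genes 2.40% and 3.80% were called lower by edgeR. An unadjusted p under 0.05 was reached by 8 and 10 of the endothelial markers, where 18.3% and 24.0% of all genes did. DESeq2 called 5 and 7 of them (5.28% and 9.02% of all genes) and limma 7 and 6 (9.98% and 23.1%). For 8 and 9 of them every KO library lay below every WT library, as for 14.7% and 16.0% of all genes. The untreated endothelial sum ran from 362 to 472 CPM in WT, 322 to 423 in HET and 199 to 307 in KO. Of 10 stellate or mesenchymal and 10 immune markers 0 were called by edgeR in either treatment, where 1 and 6 of them had an unadjusted p under 0.05 in untreated islets (1 and 0 with cytokines). Such a p was reached by 18.3% of all genes untreated and 24.0% with cytokines. DESeq2 and limma each called 1 of each list in untreated islets, where they called 5.28% and 9.98% of all genes. With cytokines each called 1 stellate and 0 immune markers, beside 9.02% and 23.1% of all genes. Unlike the enzymes, 8 stellate and 9 immune markers had untreated estimates above 0 (medians 0.40 and 0.98). With cytokines 5 and 3 did (medians -0.005 and -0.10). The untreated immune sum ran from 102 to 122 CPM in WT and 97.8 to 301 in KO libraries (KO mean 166 ± 116, SD). Summed beta cell markers stood at 166944 to 192591 CPM in untreated WT and 187954 to 233554 CPM in untreated KO libraries, and G6pc2 (0.49 ± 0.11) and Pcsk1 (0.46 ± 0.11) were called higher in cytokine-treated KO islets. All 10 beta cell markers had estimates above 0 in both treatments (medians 0.37 and 0.43), opposite to the enzymes. An unadjusted p under 0.05 was reached by 7 and 5 of them, where 18.3% and 24.0% of all genes did. DESeq2 called 4 in each treatment and limma 6 and 3, where DESeq2 called 5.28% and 9.02% and limma 9.98% and 23.1% of all genes. No marker of these lists was at 0 in a group. Their part in the enzyme differences was not tested.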

How the data were processed

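RNA-seq read counts per gene for 18 islet libraries were used as deposited: the authors' table holds raw whole-number counts for 55536 genes. The submitters' processing notes name STAR 2.5.2a, cutadapt 1.16, featureCounts 1.6.2 and the build GRCm38, and their settings and strandedness are not given in the sources used here. Genes were kept by edgeR's filterByExpr (count minimum 10), which left 17590, libraries were scaled by TMM, and all 6 groups were fitted in 1 quasi-likelihood model (edgeR 4.0.16, R 4.3.3), which gave 12 comparisons on 12 residual degrees of freedom, each adjusted by Benjamini-Hochberg over all genes tested. Alternatives were DESeq2 1.42.0, limma 3.58.1 (voom with quality weights), other scaling and filters, fits of only the groups compared, a replicate block, and leaving out libraries. Exon lengths and positions came from GENCODE M21 and promoters from RefSeq. The script was tested on simulated data for untreated KO against WT: 44.9% of genes changed 1.5-fold, 61.2% of those changed 2-fold, 94% at 4-fold and 91.8% at 8-fold were recovered, on 17278 genes. Of 150 calls 6 were false. For cytokines against none in KO the rates were 54%, 66%, 88% and 98%, with 11 false calls of 163. The changed genes were drawn at random and simulated independently, so these rates do not describe the enzyme genes, which vary together. The members and lists were chosen with earlier results of these data known. Named beside the genes listed in every library were, per comparison, up to 4 called enzymes of largest change, or else the 2 of smallest p.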

Additional observations from a re-analysis of the deposited data

How the results depend on the processing

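Counts of called members depended on the tool where edgeR called 0. DESeq2 called 15 (HET against WT, untreated), 23 (with cytokines), 10 and 13 (KO against HET, untreated and with cytokines) and 1 (cytokines in KO); limma called 23 (HET against WT with cytokines), 14 and 21 (KO against HET) and 20 (cytokines in KO). A fit of only the groups compared called 17 for KO against WT with cytokines and 1, Nr5a2 (higher), for cytokines in WT. Without the 2 libraries of lowest quality weight, 3 were called for untreated KO against HET, Zg16 and Nr5a2 lower and Bhlha15 higher, and 1, Bhlha15 (lower), for cytokines in KO. Leaving out 1 library at a time gave 18 to 25 and 25 to 27 for KO against WT, 0 to 4 for untreated KO against HET and 0 to 1 for cytokines in KO. A replicate block left the counts of 26 and 28 for KO against WT. The labels do not say whether same-numbered libraries share mice, and they were not taken as pairs. Their deviations correlated over 0.1 in 6 of 9 pairs between treatments of 1 genotype (-0.219 to 0.392). Between genotypes in the same treatment 5 of 18 pairs of equal replicate number did (-0.276 to 0.450), and where both differed 3 of 18 did (-0.422 to 0.394). Libraries of different genotypes cannot share a mouse, so correlations of this size also arose without pairing. Within genotypes, 14 of 18 libraries correlated best with their own number in the other treatment. This is at most a hint of pairing, which the main cytokine tests do not use. A block within genotype called 1 member, Bhlha15, for cytokines in KO. Without Ctrb1 the enzyme shares were 0.626%, 0.256% and 0.135% in untreated WT, HET and KO and 0.624% and 0.232% in WT and HET with cytokines. As a difference of mean log2 CPM, factors minus enzymes came to -4.14, -3.75 and -3.02 untreated and -4.13, -3.54 and -3.23 with cytokines (WT, HET, KO).

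Uncalled log2 changes that turned sign were, under limma and without the 2 libraries of lowest weight, Nr5a2 for cytokines in HET (-0.019 and -0.032), Bhlha15 (-0.052 and -0.063) and Nr5a2 (0.094 and 0.12) for untreated HET against WT, Rbpjl for untreated KO against HET (0.23 and 0.094) and Rbpjl for cytokines in HET (0.33 and 0.16). limma alone turned Ptf1a for cytokines in WT (0.016) and the Nr5a2 response, KO minus WT (0.0059), and leaving out those 2 libraries the Ptf1a response, KO minus HET (-0.33). Leaving out 1 library, the ranges that crossed 0 were, for cytokines in WT, Amy1 -0.11 to 0.34, Ptf1a -0.35 to 0.22 and Rbpjl -0.37 to 0.69; in HET, Ptf1a -0.47 to 0.85, Rbpjl -0.52 to 0.17 and Nr5a2 -0.032 to 0.30; in KO, Nr5a2 -0.0092 to 0.48. For untreated HET against WT they were Bhlha15 -0.063 to 0.19 and Nr5a2 -0.22 to 0.12, for KO against HET Rbpjl -0.43 to 0.057 untreated and Ptf1a -0.99 to 0.34 with cytokines. For responses they were Ptf1a -0.36 to 0.97, Rbpjl -0.83 to 0.31 and Bhlha15 -0.080 to 0.17 (HET minus WT), Bhlha15 -0.18 to 0.0096 and Nr5a2 -0.49 to 0.0098 (KO minus WT), and Ptf1a -0.37 to 0.96 and Nr5a2 -0.17 to 0.33 (KO minus HET). The cause was not tested. Ptf1a and Rbpjl, with at most 83 and 50 reads in a library, are limited by depth.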
